A study of Mus musculus with 6 samples.

Results

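The genes described are 7 of the 47480 rows of the deposited expression table, chosen by symbol: the mechanically or osmotically gated channel genes Piezo1, Piezo2 and Trpv4, the pannexin genes Panx1 and Panx3, and the connexin genes Gja1 and Gjc1. They were measured by RNA sequencing of neonatal mouse chondrocytes in primary culture, the cell type that builds and maintains cartilage. A2ARKO mice carry a global knockout of the adenosine A2A receptor, encoded by Adora2a, on a C57BL/6 background, and WT mice are C57BL/6 from the same animal facility. Each of the 3 A2ARKO and 3 WT libraries holds RNA of trypsinized cells pooled over 1 whole litter, with no treatment given in the labels, so each replicate is a litter pool, and the spread behind every p-value is that between litters. The study compared the genotypes to characterize drivers of osteoarthritis.

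Cartilage has no vessels or nerves of its own, and its cells live under cyclic pressure. Piezo channels open when the membrane is stretched and let calcium into the cell, and TRPV4 does so on osmotic swelling and physiological strain. Both kinds of channel are known mechanotransducers of chondrocytes, TRPV4 being linked to matrix synthesis and the Piezo channels to the response to injurious strain. Connexins form hemichannels and gap junctions between cells, and pannexins form large-pore channels that release ATP, from which extracellular adenosine, the ligand of the deleted receptor, can be made. Panx3 is known from skeletal tissue, where it marks maturing chondrocytes and osteoblasts.

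Values are FPKM, fragments per kilobase of gene per mega fragments, which are per length and so can be compared between genes. Sequencing depth, read off the spacing of the lowest values, came to 51.5 to 58.1 M reads (M, mega) in the A2ARKO libraries and 41.6 to 52.6 M reads in the WT libraries. Adora2a read 0.41, 0.54 and 0.66 FPKM in A2ARKO replicates 1, 2 and 3, against 9.36, 7.31 and 3.46 FPKM in WT replicates 1, 2 and 3, lower in every A2ARKO library (limma adjusted p = 0.0203). It passed the 1 FPKM filter for testing through the WT libraries alone. The extent of the deletion was not given in the sources used here.

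Some libraries stood apart within their genotype. The summed FPKM of 15 chondrocyte marker genes (of 16 listed) was 2347, 4745 and 6664 in A2ARKO replicates 1, 2 and 3, against 27070, 1383 and 501 in WT replicates 1, 2 and 3. Acan, which encodes the cartilage proteoglycan aggrecan, read 41.0, 114 and 177 FPKM in the A2ARKO libraries, against 878, 11.6 and 3.55 FPKM in the WT libraries. WT replicate 1 therefore had the highest, and WT replicates 2 and 3 the lowest, level of the genes that define the labelled cell type. WT replicate 2 also carried skeletal muscle markers, summing to 1577 FPKM, against 14.2 to 42.8 FPKM in the A2ARKO libraries and 11.2 and 27.2 FPKM in the other WT libraries. Macrophage markers summed to 25.8 to 50.9 FPKM in the A2ARKO libraries, against 179, 1868 and 130.3 FPKM in WT replicates 1, 2 and 3. In pooled RNA, fewer cells of a type and less RNA per cell cannot be told apart.

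All 7 genes reached 1 FPKM in at least 3 of the 6 libraries, the filter for testing. None was called between the genotypes, that is, none reached an adjusted p below 0.05 in limma fitted to all 11595 tested genes, of which 5.08% were called, 3.31% as higher and 1.77% as lower in A2ARKO. At an unadjusted limma p below 0.05 the count was 1 of 7, Piezo2, against 24.7% of all tested genes. The median log2 fold change, A2ARKO minus WT on log2(FPKM + 1), was -0.10 over the 7 genes and 0.0020 over all tested genes. The genes differed in how they varied between litters. Within a genotype, the highest library was at most 1.77 times the lowest for Piezo1, Gja1, Panx1 and Gjc1. For Piezo2 this factor was 1.23 in A2ARKO and 3.21 in WT, and for Trpv4 it was 2.52 in A2ARKO and 11.8 in WT.

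**Figure D1:**
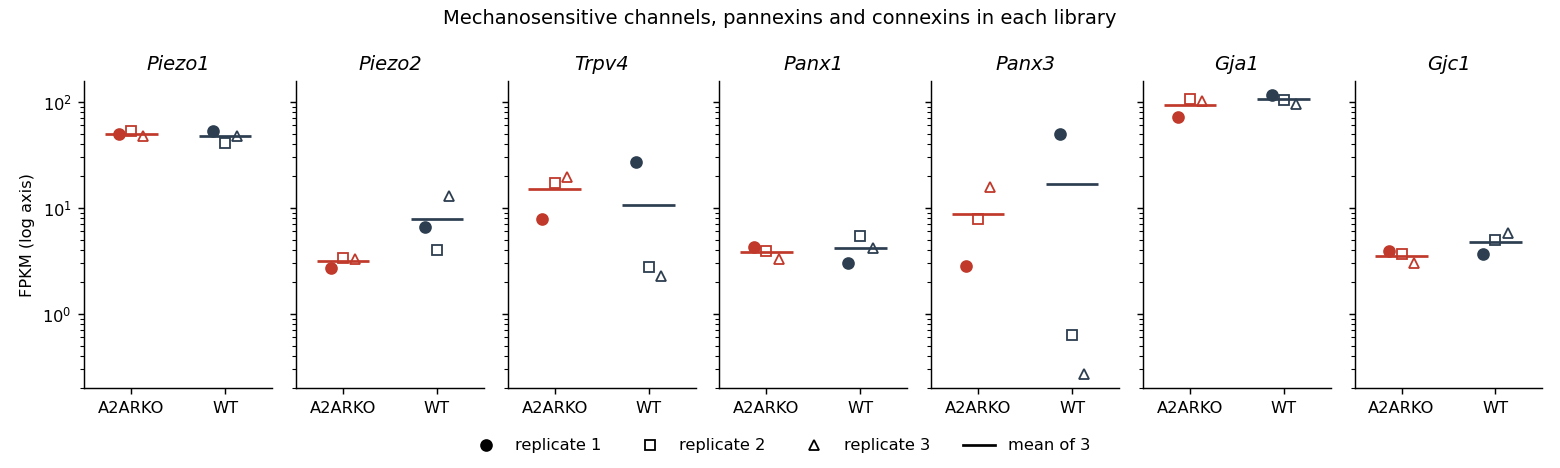
FPKM on a log axis of each gene in the 3 A2ARKO (red) and 3 WT (dark blue) libraries, with 1 symbol per litter pool and a line at the mean of 3. Piezo1 and Gja1 sit high and close together in both genotypes, while Panx3 reaches from 0.27 to 49.7 FPKM among WT libraries.

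By level, Gja1 was the most abundant, followed by Piezo1. The lowest Gja1 value of any library, 72.0 FPKM in A2ARKO replicate 1, exceeded the highest Piezo1 value, 53.5 FPKM in WT replicate 1. The mean of Gja1 over the 6 libraries lay above that of 96.9% of the tested genes, and the mean of Piezo1 above that of 92.5%. Trpv4 and Panx3 came next in A2ARKO cells, at means of 14.9 and 8.82 FPKM, and their ranges overlapped. Panx1, Gjc1 and Piezo2 had the lowest means there, at 3.82, 3.52 and 3.13 FPKM with overlapping ranges. The range of Panx3, at 2.81 FPKM in A2ARKO replicate 1, overlapped theirs as well. In WT cells the means of Panx3, Trpv4, Piezo2, Gjc1 and Panx1 followed those of Gja1 and Piezo1 at 16.9, 10.7, 7.86, 4.79 and 4.23 FPKM, and neighbours in that order overlapped. The place of Panx3 rested on WT replicate 1, since in WT replicates 2 and 3 it was the lowest of the 7 genes.

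The stretches just upstream of the start site are shown for Trpv4, the most variable of the genes with a promoter entry, and for Piezo1 and Gja1, the genes of highest level. They are the 250 bases before the start in RefSeq on GRCm38.p6, read 5′ to 3′ on the strand of the gene. For Trpv4 this is chr5:114658422-114658671 (minus strand), for Piezo1 chr8:122551330-122551579 (minus strand) and for Gja1 chr10:56377050-56377299 (plus strand). Capitals mark exact matches, on either strand, to the CRE half-site TGACG, bound by cAMP-responsive factors, the SOX core ACAATG, the TEAD core GGAATG, the GC box GGGCGG or the TATA box TATAAA. No marked matches overlap.
Trpv4: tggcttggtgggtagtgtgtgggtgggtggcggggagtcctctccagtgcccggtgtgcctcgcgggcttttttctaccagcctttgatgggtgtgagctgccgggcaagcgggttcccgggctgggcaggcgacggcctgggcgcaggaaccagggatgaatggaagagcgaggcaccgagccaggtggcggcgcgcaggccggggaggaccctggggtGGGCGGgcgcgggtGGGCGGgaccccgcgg
Piezo1: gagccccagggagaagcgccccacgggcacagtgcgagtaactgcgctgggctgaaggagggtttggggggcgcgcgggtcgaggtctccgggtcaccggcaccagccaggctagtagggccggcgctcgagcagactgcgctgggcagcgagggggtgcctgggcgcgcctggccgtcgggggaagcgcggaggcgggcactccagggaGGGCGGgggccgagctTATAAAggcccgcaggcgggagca
Gja1: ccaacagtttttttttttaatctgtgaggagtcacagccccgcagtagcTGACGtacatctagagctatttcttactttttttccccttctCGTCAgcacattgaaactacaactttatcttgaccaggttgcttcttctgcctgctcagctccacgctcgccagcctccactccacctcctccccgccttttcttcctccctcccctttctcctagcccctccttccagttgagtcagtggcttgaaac
The window of Trpv4 holds 2 GC boxes, that of Piezo1 holds 1 GC box and 1 TATA box, and that of Gja1 holds 2 CRE half-sites. Over 32851 promoter windows of the same length, 17.8% hold the CRE half-site, 10.7% the SOX core, 12.6% the TEAD core, 32.7% the GC box and 12.4% the TATA box. The GC content was 72.0% for Trpv4, 74.0% for Piezo1 and 50.0% for Gja1. A match describes letters and not a site of binding, and 4 of the 7 genes had an entry.

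Piezo1, the more abundant Piezo channel gene (mm10 chromosome 8, 122481698 to 122551329, minus strand), differed little between any of the libraries. Its FPKM was 49.9, 52.7 and 47.5 in A2ARKO replicates 1, 2 and 3, against 53.5, 41.2 and 47.9 in WT replicates 1, 2 and 3. All 3 A2ARKO values lay within the WT range. The mean was 50.0 ± 2.57 FPKM in A2ARKO and 47.5 ± 6.20 FPKM in WT (SD, n = 3 each). The log2 fold change was 0.08, with a 95% interval of -0.21 to 0.37 (limma adjusted p = 0.737), and its sign turned to -0.04 when the libraries were rescaled to the same sum. Exons of Piezo1 share 2441 bases with Ctu2, a gene on the opposite strand, which read 3.50 to 4.34 FPKM in A2ARKO and 2.71 to 3.93 FPKM in WT. The strand setting was not given in the sources used here, and reads in the shared bases cannot be assigned to either gene.

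Piezo2, the relative of Piezo1 best known from sensory neurons and touch receptors, was the only one of the 7 whose genotypes did not overlap at the deposited scaling, and after rescaling to the same sum those of Gja1 did not overlap either. Its FPKM was 2.73, 3.35 and 3.32 in A2ARKO replicates 1, 2 and 3, against 6.56, 4.04 and 12.97 in WT replicates 1, 2 and 3. Every A2ARKO library lay below every WT library, and the nearest WT value was that of replicate 2. At the deposited scaling, 14.9% of tested genes lay lower in A2ARKO without overlap and 32.9% did not overlap in either direction. The mean was 3.13 ± 0.350 FPKM in A2ARKO and 7.86 ± 4.60 FPKM in WT (SD, n = 3 each), a ratio of 0.399. On the log2 scale Piezo2 differed by -0.97 with SE 0.36 and a 95% interval of -1.85 to -0.10 (limma unadjusted p = 0.0337, adjusted p = 0.165). By exact permutation, two-sided, p was 0.1, below which a design of 3 against 3 cannot go. Without WT replicate 3, the highest library, the log2 fold change was -0.58 (limma adjusted p = 0.148), and without WT replicate 2, the library with muscle and macrophage markers, it was -1.32 (adjusted p = 0.0767, the lowest of a range that reached 0.358 over all libraries left out in turn). Fibroblast and tendon markers, 9 genes, were also lower in each A2ARKO library, summing to 1976 to 3661 FPKM in A2ARKO, against 5471 to 6424 FPKM in WT, and glial markers summed to 13.9 to 30.5 FPKM in A2ARKO, against 14.1 to 41.2 FPKM in WT. The macrophage marker sums given above were likewise lower in each A2ARKO library, and 8 of the 10 tested macrophage markers were lower there without overlap. Of these, C1qb, at 0.03 to 0.29 FPKM in A2ARKO, passed the 1 FPKM filter through the WT libraries alone. For such a gene the filter itself favours a lower A2ARKO value, so the count follows in part from the filter. Within a genotype, neither the fibroblast and tendon sum nor the macrophage sum had the order of Piezo2. Both were lowest among WT libraries in replicate 3, where Piezo2 was highest. Among A2ARKO libraries both were highest in replicate 1, where Piezo2 was lowest. The part of fibroblast, tendon, glial and macrophage cells in the values of Piezo2 was not tested. The gene lies on chromosome 18.

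Within a library, Piezo1 exceeded Piezo2 by a larger factor in A2ARKO than in WT cells. The ratio of their FPKM was 18.3, 15.7 and 14.3 in A2ARKO replicates 1, 2 and 3, against 8.16, 10.2 and 3.70 in WT replicates 1, 2 and 3. The groups did not overlap. Since Piezo1 differed little between libraries, the ratio largely restates the difference of Piezo2 and is no separate result. On the log2(FPKM + 1) scale the difference of the mean ratios was 1.05, with an exact permutation p, two-sided, of 0.1, the lowest possible here, or 0.3 adjusted over the 3 ratios compared.

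Trpv4, the osmotically sensitive calcium channel gene (mm10 chromosome 5, 114622152 to 114658421, minus strand), spanned more than the difference between genotypes within WT alone. Its FPKM was 7.81, 17.3 and 19.7 in A2ARKO replicates 1, 2 and 3, against 27.0, 2.76 and 2.30 in WT replicates 1, 2 and 3. WT replicate 1 was the highest of all libraries and WT replicates 2 and 3 were the lowest, with the A2ARKO libraries between them. The mean was 14.9 ± 6.27 FPKM in A2ARKO and 10.7 ± 14.1 FPKM in WT (SD, n = 3 each). The log2 fold change was 1.09, with a 95% interval of -1.03 to 3.20 (limma adjusted p = 0.496). Without WT replicate 1 it was 2.08 and passed the test (adjusted p = 0.0404), in a fit that called 7.76% of the tested genes. With any other library left out, adjusted p was between 0.499 and 0.758. Of the 15 tested chondrocyte markers, only Acan, Col9a3 and Matn1 passed without WT replicate 1, at log2 fold changes of 3.65, 3.88 and 5.18. Col10a1, a hypertrophic chondrocyte marker, passed as well, at 2.41. The spread of Trpv4 on the log2 scale exceeded that of 98.4% of tested genes among A2ARKO litters and of 99.1% among WT litters.

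Panx3, the pannexin of maturing chondrocytes and osteoblasts (mm10 chromosome 9, 37659902 to 37669235, minus strand), ranged most widely. Its FPKM was 2.81, 7.91 and 15.7 in A2ARKO replicates 1, 2 and 3, against 49.7, 0.63 and 0.27 in WT replicates 1, 2 and 3. The A2ARKO values again lay between WT replicate 1 and the other WT libraries. The highest value was 5.60 times the lowest among A2ARKO litters and 184 times the lowest among WT litters, where the estimated reads ran from 49 to 7103. The log2 spread exceeded that of 99.9% of tested genes in A2ARKO and of 99.8% in WT. The mean was 8.82 ± 6.51 FPKM in A2ARKO and 16.9 ± 28.4 FPKM in WT (SD, n = 3 each), whereas the log2 fold change was 0.81 with a 95% interval of -2.79 to 4.41 (limma adjusted p = 0.783). The ratio of means and the log2 mean thus differed in direction. Without WT replicate 1 the log2 fold change was 2.53 (adjusted p = 0.0688), and without WT replicate 3 it was -0.13 (adjusted p = 0.970).

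Trpv4 and Panx3 put the 6 libraries in 1 and the same order, from WT replicate 1 through A2ARKO replicates 3, 2 and 1 to WT replicates 2 and 3. This was also the order of the summed chondrocyte markers given above and of 13 of its 15 genes singly, including Col2a1, Acan and the chondrogenic transcription factor gene Sox9. Of all tested genes, 1.37% had that order, and 23.0% were highest in WT replicate 1. Col10a1, the collagen gene of hypertrophic chondrocytes, read 6.22, 9.89 and 12.1 FPKM in A2ARKO replicates 1, 2 and 3, against 84.7, 0.32 and 1.72 FPKM in WT replicates 1, 2 and 3. It was likewise highest in WT replicate 1 and lowest in WT replicates 2 and 3. The part of chondrocyte content in the differences of Trpv4 and Panx3 was not tested. None of the other 5 genes had the order of the marker sum.

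**Figure D2:**
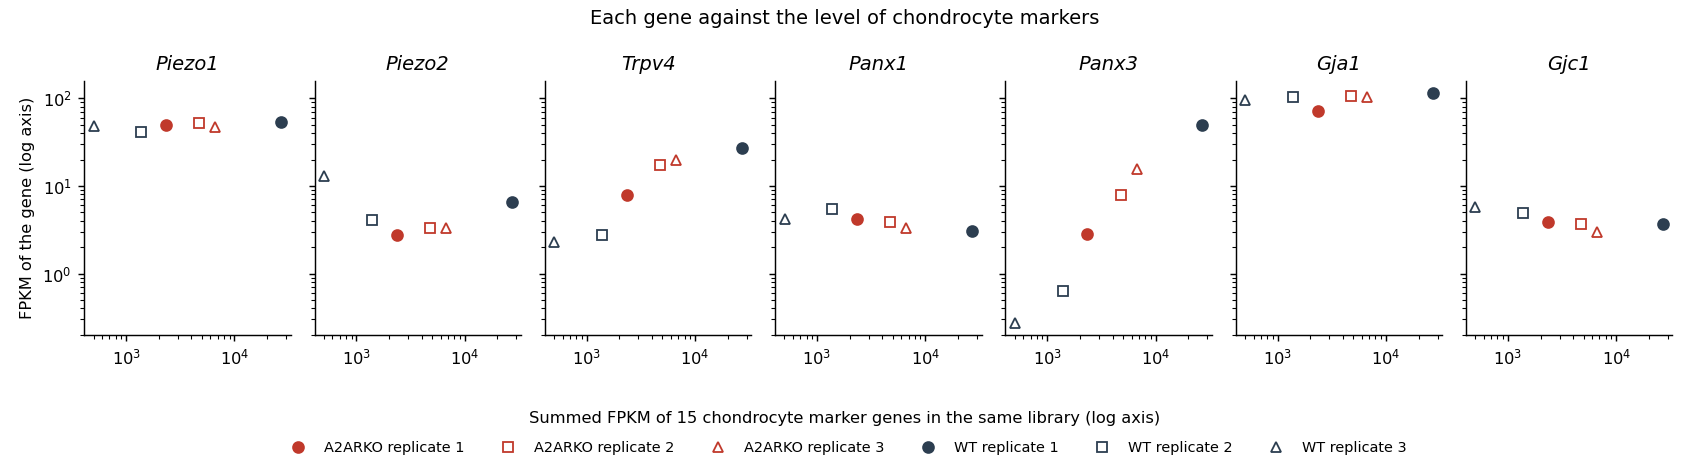
FPKM of each gene against the summed FPKM of 15 chondrocyte marker genes in the same library, both on log axes, with A2ARKO libraries in red and WT libraries in dark blue. Trpv4 and Panx3 are higher wherever the markers are higher, whereas Piezo1 stays between 41.2 and 53.5 FPKM over a marker range of 501 to 27070 FPKM.

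Panx1, the widely expressed ATP-releasing pannexin gene (mm10 chromosome 9, 15002128 to 15045478, minus strand), was low in all libraries. Its FPKM was 4.24, 3.90 and 3.31 in A2ARKO replicates 1, 2 and 3, against 3.05, 5.41 and 4.22 in WT replicates 1, 2 and 3. The A2ARKO values lay within the WT range, and the WT library highest in chondrocyte markers was the lowest for Panx1. The mean was 3.82 ± 0.471 FPKM in A2ARKO and 4.23 ± 1.18 FPKM in WT (SD, n = 3 each), a log2 difference of -0.10 with a 95% interval of -0.54 to 0.35 (limma adjusted p = 0.789). The spread of Panx1 exceeded that of 69.0% of tested genes in A2ARKO and of 75.1% in WT. The log2 fold change was 0.06 without WT replicate 2 and -0.20 after rescaling to the same sum. Panx3 held 39.4%, 66.4% and 82.0% of the FPKM of the 3 pannexin genes in A2ARKO replicates 1, 2 and 3, against 93.7%, 10.3% and 5.99% in WT replicates 1, 2 and 3. Which pannexin led thus differed between litters of both genotypes. The difference of the log2 ratio of Panx3 to Panx1 between genotypes was 0.91 (two-sided exact permutation p = 0.8, adjusted 0.8).

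Gja1, which encodes the gap junction protein Cx43, was the more abundant of the 2 connexin genes. It lies on mm10 chromosome 10 (56377330 to 56402513, plus strand), 18.9 Mb from Adora2a. Its FPKM was 72.0, 106 and 103 in A2ARKO replicates 1, 2 and 3, against 116, 104 and 96.5 in WT replicates 1, 2 and 3. A2ARKO replicate 1 was the lowest library, and the other A2ARKO libraries lay within the WT range. The mean was 93.5 ± 18.7 FPKM in A2ARKO and 105 ± 9.90 FPKM in WT (SD, n = 3 each). The log2 fold change was -0.19, with a 95% interval of -0.63 to 0.25 (limma adjusted p = 0.572), and without A2ARKO replicate 1 it was -0.01. After rescaling to the same sum it was -0.31 (adjusted p = 0.367), and every A2ARKO library then lay below every WT library. The two-sided exact permutation p was then 0.1, the lowest possible (0.5 as deposited). Rescaling also moved the median log2 fold change of all tested genes to -0.10. The share of genes without overlap was not computed at that scaling. The spread of Gja1 exceeded that of 89.9% of tested genes in A2ARKO and of 32.4% in WT.

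Gjc1, which encodes Cx45, a connexin able to form mixed channels with Cx43 (mm10 chromosome 11, 102799579 to 102819700, minus strand), was an order of magnitude lower. Its FPKM was 3.92, 3.65 and 2.99 in A2ARKO replicates 1, 2 and 3, against 3.65, 4.94 and 5.77 in WT replicates 1, 2 and 3. WT replicate 1 lay among the A2ARKO values, and the other WT libraries lay above them. The mean was 3.52 ± 0.478 FPKM in A2ARKO and 4.79 ± 1.07 FPKM in WT (SD, n = 3 each). The log2 fold change was -0.34, with a 95% interval of -0.74 to 0.05 (limma unadjusted p = 0.0790, adjusted p = 0.258). The log2 ratio of Gja1 to Gjc1 differed by 0.16 between genotypes (two-sided exact permutation p = 0.7, adjusted 0.8).

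**Figure D3:**
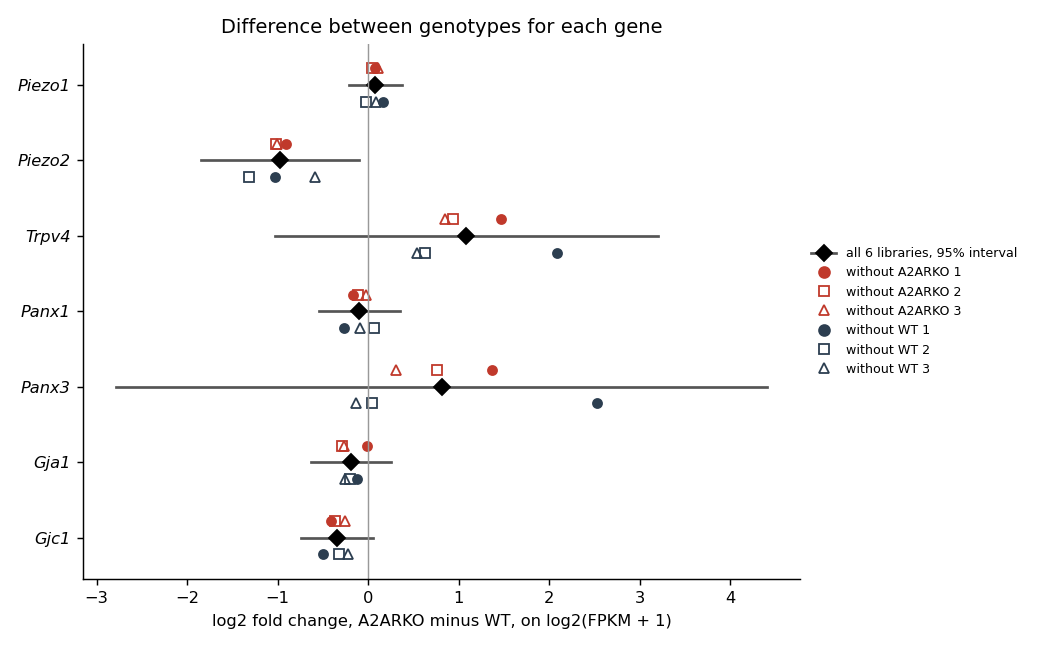
Log2 fold change, A2ARKO minus WT on log2(FPKM + 1), of each gene with all 6 libraries (diamond, line for the 95% interval from limma) and with each A2ARKO (red) or WT (dark blue) library left out. Without WT replicate 1, Trpv4 and Panx3 move to 2.08 and 2.53, and Piezo2 stays below 0 in all fits.

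The genes of most similar profile were found by the root mean square difference of log2(FPKM + 1), centred on each gene, over the 6 libraries. For Panx3 they were the cartilage collagen gene Col9a2, Susd5 and the fibroblast growth factor receptor gene Fgfr3, at 0.39, 0.40 and 0.51. For Trpv4 they were the collagen prolyl hydroxylase gene P3h2, Tnfrsf11b, which encodes osteoprotegerin, and the chondroitin sulfotransferase gene Chst11, at 0.17, 0.19 and 0.20. For Piezo2 they were Lbh, the tight junction gene Cldn1 and the elastic fibre gene Fbln5, at 0.21, 0.21 and 0.23. Cldn1, at 0.32 to 0.37 FPKM in A2ARKO, passed the 1 FPKM filter through the WT libraries alone, which itself favours a lower A2ARKO value. Tnfrsf11b, for example, read 19.3, 50.6 and 52.1 FPKM in A2ARKO replicates 1, 2 and 3, against 94.0, 7.72 and 7.22 FPKM in WT replicates 1, 2 and 3. The measure is smaller for genes that vary less, and the root mean square deviation of the gene itself was 1.87 for Panx3, 1.20 for Trpv4, 0.65 for Piezo2 and 0.12 to 0.25 for the other 4. The nearest to these were Pafah2, Kdelc1 and Asb1 for Piezo1, D8Ertd82e, Tpm3 and Sh3glb1 for Panx1, Dock5, Rsph9 and Rfk for Gja1, and Fez1, Sept2 and Fgd1 for Gjc1, all at 0.06 or less.

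Outside the 7 genes, calls in related gene lists were few. Of 17 other connexin and pannexin genes 1 was tested, Gjb5, a beta connexin gene, and it rose, against the 3.31% of all tested genes that rose. Gjb5 read 4.45, 5.38 and 4.09 FPKM in A2ARKO replicates 1, 2 and 3, against 0.91, 0.66 and 2.13 FPKM in WT replicates 1, 2 and 3. All A2ARKO libraries lay above all WT libraries. Gjb5 was thus higher by 1.39 (SE 0.25) on the log2 scale (limma adjusted p = 0.0385). It passed the filter through the A2ARKO libraries, since 1 WT library reached 1 FPKM. For such a gene the filter itself favours a higher A2ARKO value. The 1 call in 1 tested gene thus follows in part from the filter and shows no excess over the 3.31%. With WT replicate 3 left out the call held (limma adjusted p = 0.0112). It was lost with any other library left out (0.0563 to 0.163). A pseudocount of 0.1 (0.0507) and rescaling to the same sum (0.0674) also lost it. Keratinocyte markers summed to 0.95 to 1.78 FPKM in A2ARKO and to 0.72 to 2.66 FPKM in WT, with Krt14 at 0.03 FPKM or less in every library. The part of other cell types in the value of Gjb5 was not tested. Of the other 16, 4 were at 0 in every library.

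**Figure D4:**
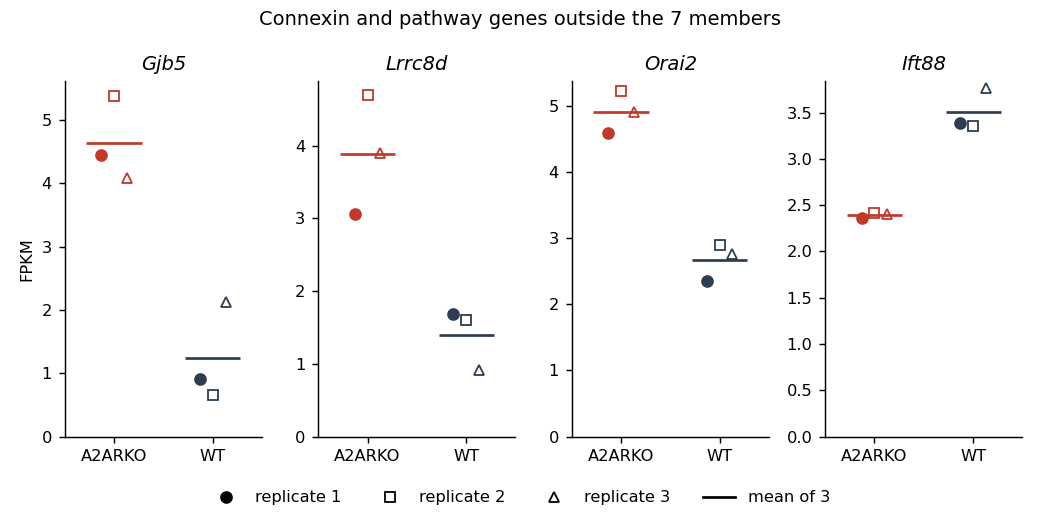
FPKM in the 3 A2ARKO (red) and 3 WT (dark blue) libraries of Gjb5, Lrrc8d, Orai2 and Ift88, list genes that passed the test, with a line at the mean of 3 and each axis starting at 0. All A2ARKO libraries lie above all WT libraries except for Ift88, where they lie below.

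Among 12 tested of 24 other stretch- or pressure-gated channel genes, 0 were called by limma, 6 reached an unadjusted p below 0.05, and the median log2 fold change was -0.15. Over all tested genes 5.08% were called and 24.7% reached an unadjusted p below 0.05. Without WT replicate 1 the list had 1 gene called, Tmem63b, at 0.48, in a fit that called 7.76% of all tested genes. Asic3, an acid-sensing channel gene, and Trpm7, a channel and kinase gene, had the smallest p. Asic3 read 13.3, 4.14 and 2.85 FPKM in A2ARKO replicates 1, 2 and 3, against 0.14, 0.59 and 2.05 FPKM in WT replicates 1, 2 and 3 (log2 fold change 1.89, limma adjusted p = 0.117). Like Gjb5, Asic3 passed the filter through the A2ARKO libraries, since 1 WT library reached 1 FPKM. Trpm7 averaged 10.8 ± 1.13 FPKM in A2ARKO and 14.4 ± 1.64 FPKM in WT (SD, n = 3 each), at -0.38 (adjusted p = 0.122). The groups of both genes did not overlap, as in 32.9% of all tested genes, but neither passed. Of the 5 subunits of the volume-regulated anion channel, Lrrc8d rose and 4 did not pass, against 3.31% of all tested genes called higher. Lrrc8d averaged 3.89 ± 0.820 FPKM in A2ARKO and 1.40 ± 0.427 FPKM in WT (log2 fold change 1.03, adjusted p = 0.0399), and without any 1 A2ARKO library or WT replicate 2 it did not pass (0.0730 to 0.160).

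Of 24 tested genes of calcium entry, calcium stores and calcineurin, 1 rose, Orai2, a pore subunit of store-operated calcium channels, and 23 did not pass (median -0.05), a share close to the 3.31% of all tested genes called higher. Orai2 averaged 4.92 ± 0.320 FPKM in A2ARKO and 2.68 ± 0.282 FPKM in WT (SD, n = 3 each), a log2 difference of 0.69 (limma adjusted p = 0.0207). Orai2 did not pass without any 1 A2ARKO library (0.0701 to 0.118) or after rescaling to the same sum (0.0929). None of 17 genes of YAP and TAZ, the strain-responsive transcriptional coactivators, their partners and targets was called by limma (3 at an unadjusted p below 0.05, median 0.13). Among all tested genes 5.08% were called and 24.7% had an unadjusted p below 0.05. Amotl2 and Axl had the smallest p, at log2 fold changes of 0.89 and 0.62 (limma adjusted p = 0.0823 and 0.0899). Without WT replicate 1 the list had 3 genes called higher, Amotl2, Cyr61 and Crim1. That fit called 538 of all 11595 tested genes higher, and 7.76% in either direction.

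Of 16 tested channel and junction partners, 0 were called by limma, against 5.08% of all tested genes (median -0.04). At an unadjusted p below 0.05 the count was 1, against 24.7% of all tested genes. Cdh2, the N-cadherin gene, averaged 6.03 ± 0.998 FPKM in A2ARKO and 11.1 ± 3.06 FPKM in WT (log2 fold change -0.76, adjusted p = 0.0963). Nov, which encodes a matricellular protein that binds Cx43, had a log2 fold change of -1.74 (adjusted p = 0.202). Without WT replicate 1 both Cdh2 and Nov were called lower. That fit called 362 of all 11595 tested genes lower, and 7.76% in either direction. Of 15 genes of the primary cilium, the antenna-like organelle of chondrocytes, Ift88 fell and 14 did not pass (median -0.04), against 1.77% of all tested genes called lower. Ift88, an intraflagellar transport gene, averaged 2.39 ± 0.0306 FPKM in A2ARKO and 3.50 ± 0.232 FPKM in WT (SD, n = 3 each), at -0.41 (limma adjusted p = 0.0490). Whichever library was left out, Ift88 did not pass (0.0535 to 0.205), nor did it after rescaling to the same sum (0.116).

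Markers of other cell types were mostly not called. Of 9 fibroblast and tendon markers Dpt fell, its log2 difference being -2.22 (limma adjusted p = 0.0354), and 8 did not pass. At an unadjusted p below 0.05 the count was 6 of 9, against 24.7% of all tested genes, and 5 of the 9 were lower in A2ARKO without overlap, against 14.9% of all tested genes. With a library left out, Dpt passed only where that was WT replicate 3 (0.0255), its adjusted p being 0.0535 to 0.144 otherwise. Of the chondrocyte, hypertrophic chondrocyte, osteoblast, skeletal muscle, smooth muscle, endothelial, macrophage, glial and keratinocyte markers, 0 were called by limma. At an unadjusted p below 0.05 these lists had 0 of 15, 2 of 6, 1 of 3, 0 of 6, 0 of 8, 0 of 2, 7 of 10, 1 of 2 and 0 of 1 tested genes. The macrophage share lay above the 24.7% of all tested genes, and 8 of its 10 genes were lower in A2ARKO without overlap, against 14.9%. C1qb among them passed the filter through the WT libraries alone, as given above. Smooth muscle and pericyte markers summed to 501 to 1702 FPKM in A2ARKO and to 515 to 1183 FPKM in WT. Endothelial markers summed to 2.59 to 3.07 FPKM in A2ARKO and to 2.33 to 5.74 FPKM in WT, with Pecam1 at 0.18 FPKM or less.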

How the data were processed

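The authors deposited 1 table of FPKM, rounded to 2 decimals, covering 47480 genes and 6 libraries, each library assigned by its title. Per the submitters' processing notes, HTSeq and mm10 were used. Aligner, versions, annotation and strand setting were not given in the sources used here. FPKM carry no count error of their own, so depth was estimated from low values: FPKM times exon length of genes of at most 150 nt (GENCODE M21 on GRCm38, the assembly named mm10) fell on whole reads, within 0.1 read, for 99.0% or more of values up to 10 reads. Reads behind a gene are therefore approximate, and cover counting error only.

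Genes that reached 1 FPKM in 3 or more libraries were fitted with limma 3.58.1 in R 4.3.3 (lmFit, eBayes with trend) on log2(FPKM + 1), with no replicate block and two-sided p-values adjusted by Benjamini-Hochberg over 11595 genes. The log2 scale understates changes of low genes. Single values and the 3 within-library ratios had two-sided exact permutation tests (scipy 1.17.1), whose smallest p is 0.1. The fit was tested on simulated data with 1 common spread for all genes and both genotypes. In the data the median SD of log2(FPKM + 1) was 0.0966 in A2ARKO and 0.192 in WT, so the simulation does not cover unequal spread. No 2 libraries of a genotype had near-identical values (median log2 difference of 0.0731 or more).

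The members and the 18 gene lists were chosen with earlier results of these data known. Genes were named by rule: the members, Adora2a, from each list up to 3 called genes with the largest change or else up to 2 with the smallest p, and 3 genes of nearest profile for each member, without predicted genes. Marker genes named under that rule but not described above were Comp, Mef2c, Mmp13, Spp1, Ibsp, Tnnt3, Myh3, Myh11, Cnn1, Egfl7, Tek, Lyz2, Ngfr, S100b and Trp63, none of them called with all 6 libraries. Erythroid markers summed to at most 0.14 FPKM. Some list genes are not reported here. Alternatives were a pseudocount of 0.1, no filter, other scalings, the replicate block and leaving out each library.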

Additional observations from a re-analysis of the deposited data

How the results depend on the processing

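With all 6 libraries limma called 589 genes, 384 higher and 205 lower in A2ARKO. Without the filter it called 213 (143 higher, 70 lower), after rescaling to the same sum 348 (178 higher, 170 lower), after quantile normalization 302 higher and 259 lower, and with each library left out 50 to 900 (39 to 568 higher, 11 to 362 lower). Rescaling moved the median of all genes to -0.10, and gave Piezo1 -0.0387 both in the fit and in the exact test. With the replicate number as a block, 2 genes were called (1 higher, 1 lower) and 0 members. The labels used here give no pairing of libraries by number. The deviations of same-numbered libraries correlated at -0.52, -0.33 and -0.39, and no library correlated best with its own number. These correlations cannot show whether same-numbered libraries were prepared together. The count of members called was 0 in all these fits except without WT replicate 1, where it was 1, Trpv4. With a library left out, log2 fold changes spanned -0.0193 to 0.17 for Piezo1, 0.54 to 2.08 for Trpv4, -0.27 to 0.0624 for Panx1 and -0.13 to 2.53 for Panx3, and kept their sign for Piezo2, Gja1 and Gjc1. Adora2a kept its log2 fold change of -2.245 but not its call without the filter (adjusted p = 0.0533) or with the block (0.121). With a library left out it spanned -2.60 to -1.99, and the call was lost without A2ARKO replicate 1, 2 or 3 or WT replicate 2 (0.0582 to 0.0955). The Gjb5, Lrrc8d, Orai2, Ift88 and Dpt calls were lost without the filter and with the block. Causes were not tested. Depth limits mainly Panx3 in WT replicates 2 and 3, at an estimated 108 and 49 reads, a counting error of 14.3% for the lower, and Adora2a in A2ARKO.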
